A study of Mus musculus with 8 samples.

Results

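The genes described here are 10 of the 24341 genes with an expression value in the deposited table. They are the 6 ST3Gal sialyltransferases St3gal1 to St3gal6, the sialyltransferase St6gal1, and the ganglioside enzymes St8sia1, B4galnt1 and Ugcg. They were chosen by symbol, as the named enzymes of terminal sialylation and of ganglioside synthesis, at a time when their values in these libraries were already known. The difference between genotypes in these 10 genes is therefore a description and carries no test. RNA was taken from single mouse pancreas buds at E11.0, a stage of about 40 somites. The labels give the outbred strain CD1 for all 8 buds, whereas the methods name CD1 for WT work and otherwise the mutant lines, so how far the groups share a background is unclear. The WT group held 5 buds. The Lats1/2-null group held 3 buds of the genotype Pdx1Creearly;Lats1f/f;Lats2f/f, in which a Cre recombinase under control of the Pdx1 promoter deletes floxed Lats1 and Lats2. Cells of the bud that never expressed Pdx1 keep both kinase genes, and they remained in the RNA to the extent that the mesenchyme was not pulled away with forceps. The methods also allow heterozygous littermates as controls, but the labels call all 5 control buds WT.

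Sialyltransferases sit in the Golgi and move sialic acid from its activated form, CMP-sialic acid, onto the sugar chains of glycoproteins and glycolipids. Gangliosides are sialic acid-bearing glycolipids that grow step by step from ceramide. Ugcg adds glucose, lactosylceramide synthases add galactose, St3gal5 adds a sialic acid to give GM3, and GM3 is then either extended with a further sialic acid by St8sia1 to give GD3 or with N-acetylgalactosamine by B4galnt1 to open the complex series. The other ST3Gal enzymes and St6gal1 cap galactose at the ends of protein-bound glycans, with St3gal1 and St3gal2 preferring the core of O-linked chains and, for St3gal2, the outer end of complex gangliosides.

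The promoters of the genes with the largest difference in each direction, St3gal5 and St8sia1, are shown beside the only member promoter that held the TEAD word. TEAD factors are the DNA-binding partners of YAP and TAZ, the coactivators that LATS kinases restrain. Each window is read 5' to 3' on the strand of the gene and runs from 250 bases before to 50 bases after a RefSeq start of GRCm38.p6. The St3gal5 window lies at chr6:72097358-72097657 on the plus strand, the St8sia1 window at chr6:142964403-142964702 on the minus strand, and the upstream St3gal6 window at chr16:58524204-58524503 on the minus strand. This St3gal6 window lies wholly outside the locus to which the deposited St3gal6 values belong, chr16:58470541-58523312. Capitals mark matches to the TEAD word GGAATG, the GC box word GGGCGG or the CCAAT box word CCAAT, each sought on both strands.
St3gal5: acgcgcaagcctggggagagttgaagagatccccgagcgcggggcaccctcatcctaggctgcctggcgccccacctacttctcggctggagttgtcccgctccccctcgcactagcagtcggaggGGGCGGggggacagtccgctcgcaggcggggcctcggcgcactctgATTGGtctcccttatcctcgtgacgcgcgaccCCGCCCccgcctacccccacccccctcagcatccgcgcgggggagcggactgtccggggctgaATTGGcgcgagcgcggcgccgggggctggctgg
St8sia1: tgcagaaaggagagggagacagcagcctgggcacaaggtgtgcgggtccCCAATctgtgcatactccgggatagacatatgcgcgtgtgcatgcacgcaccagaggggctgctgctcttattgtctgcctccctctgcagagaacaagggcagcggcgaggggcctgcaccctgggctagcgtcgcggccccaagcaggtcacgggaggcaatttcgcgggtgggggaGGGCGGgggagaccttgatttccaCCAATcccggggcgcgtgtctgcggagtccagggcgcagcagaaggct
St3gal6 upstream window: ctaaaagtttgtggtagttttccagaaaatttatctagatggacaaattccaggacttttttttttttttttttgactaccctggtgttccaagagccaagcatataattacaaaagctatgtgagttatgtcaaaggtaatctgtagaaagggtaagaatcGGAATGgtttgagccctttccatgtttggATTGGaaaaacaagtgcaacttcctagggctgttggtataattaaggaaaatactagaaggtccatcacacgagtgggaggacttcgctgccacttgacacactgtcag
Of the 10 genes, 7 had at least 1 window, and together they had 10. GGAATG was found in 1 of these 10 windows, against 14.7% of all 32851 RefSeq windows of this length. GGGCGG was found in 7 of the 10 windows, against 35.7% of all windows, and CCAAT in 7 of the 10, against 37.4%. The St3gal5 window held 2 GC boxes, 2 CCAAT boxes, 33 CpG dinucleotides and no GGAATG. Its GC content was 72.7%, and 93.9% of all windows had a lower GC content. The St8sia1 window had a GC content of 64.7%, with 1 GC box and 2 CCAAT boxes. The upstream St3gal6 window was the poorest in GC of the 10, at 38.7%. A matched word is a property of the sequence and shows no binding.

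Values are FPKM, fragments scaled to transcript length and to the mapped fragments of the library, so levels of different genes are compared per length. Differences between genotypes are Lats1/2-null minus WT on the log2(FPKM + 1) scale, with the standard error (SE) from limma, and the added 1 FPKM understates the change of low genes. FPKM carry no read counts, and the number of fragments behind a value is unknown. Between 16117 and 16982 genes were above 0 per library, and the relative worth of a fragment at low values was 0.97 to 1.04 of that in WT replicate 1 in 6 libraries and 1.28 in WT replicate 5. The deleted genes served as a check of the labels. Lats1 was 15.6 ± 0.905 FPKM in WT (SD, n = 5) and 12.3, 13.8 and 10.1 FPKM in the 3 Lats1/2-null buds, all below the WT buds (exact permutation p = 0.0179, two-sided, the smallest that 5 against 3 allows). Lats2 was 13.8 ± 1.26 FPKM in WT and 12.3 ± 1.15 FPKM in Lats1/2-null buds (SD, n = 3). Its groups overlapped (exact permutation p = 0.143). In the fit over all genes tested, the adjusted p was 0.269 for Lats1 and 0.589 for Lats2 (limma with Benjamini-Hochberg adjustment). The log2 difference of Lats1 went from -0.35 to -0.24 without Lats1/2-null replicate 3. Groups did not overlap for 7.51% of all genes tested, so the check of the labels is weak. Gene-level FPKM also count transcript from undeleted cells and from exons outside the floxed part, and the share of either in these values was not tested.

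Marker levels of several cell types differed between the genotypes in these buds, and Lats1/2-null replicate 3 stood apart. The summed FPKM of 12 markers of pancreatic epithelium lay between 235.7 and 310.8 in WT buds, and was 549, 475 and 1147 in Lats1/2-null replicates 1, 2 and 3. All 12 were above 0 in every library, and 10 of the 12 had all Lats1/2-null buds above all WT buds, the exceptions being Pdx1 and Ptf1a. The 12 mesenchyme markers summed to 1012 to 1215 FPKM in WT buds and to 913, 1039 and 856 FPKM in Lats1/2-null buds. Of these markers, 10 of the 12 were lower on average. Their mean log2(FPKM + 1) was 4.83 to 4.97 in WT and 4.63, 4.79 and 4.14 in Lats1/2-null buds. On that scale the genotypes did not overlap. All 10 endothelial markers were lower on average, with sums of 116 to 197 FPKM in WT and 128, 120 and 82.4 FPKM in Lats1/2-null buds. Sums of red blood cell markers (2275 to 13553 FPKM in WT, 7049 to 8899 FPKM in Lats1/2-null) and nerve markers (26.2 to 34.9 and 28.3 to 44.6 FPKM) overlapped between genotypes. Leukocyte markers summed to 10.03 to 20.27 FPKM in WT and to 25.2, 21.3 and 17.1 FPKM in Lats1/2-null buds. Liver markers, of which Fga and Ahsg were at 0 in some library, reached 373 FPKM in Lats1/2-null replicate 3, against 98.2 to 169 FPKM in WT and 170 and 130 FPKM in the other Lats1/2-null buds. More or fewer cells of a type and more or less RNA per cell cannot be told apart in such bulk samples, and the part of these markers in the results below was not tested.

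All 10 genes were expressed above the minimum mean of 0.5 FPKM over the 8 libraries that was set for the comparison. In WT buds Ugcg was highest at 18.8 ± 1.40 FPKM, followed by St3gal2 at 18.5 ± 2.29, St6gal1 at 15.2 ± 2.36, St3gal5 at 11.9 ± 0.775 and St3gal1 at 9.44 ± 1.40 FPKM (SD, n = 5). Lower levels were found for St3gal3 at 7.39 ± 1.04, St3gal6 at 7.16 ± 1.89, St8sia1 at 4.64 ± 1.16, St3gal4 at 4.49 ± 0.771 and B4galnt1 at 0.980 ± 0.128 FPKM (SD, n = 5). The WT ranges of neighbours in this order overlapped for every pair except St3gal4 and B4galnt1. Within single buds, however, St6gal1 was above St3gal5 in 5 of 5 and St3gal5 above St3gal1 in 5 of 5 WT buds. Variation among WT buds was smallest for St3gal5, with a coefficient of variation of 6.51%, and largest for St3gal6 at 26.4% and St8sia1 at 25.0%. Of all 13777 genes tested, 14.2% varied less than St3gal5 among the WT buds on the log2 scale, against 86.3% that varied less than St3gal6.

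**Figure D1:**
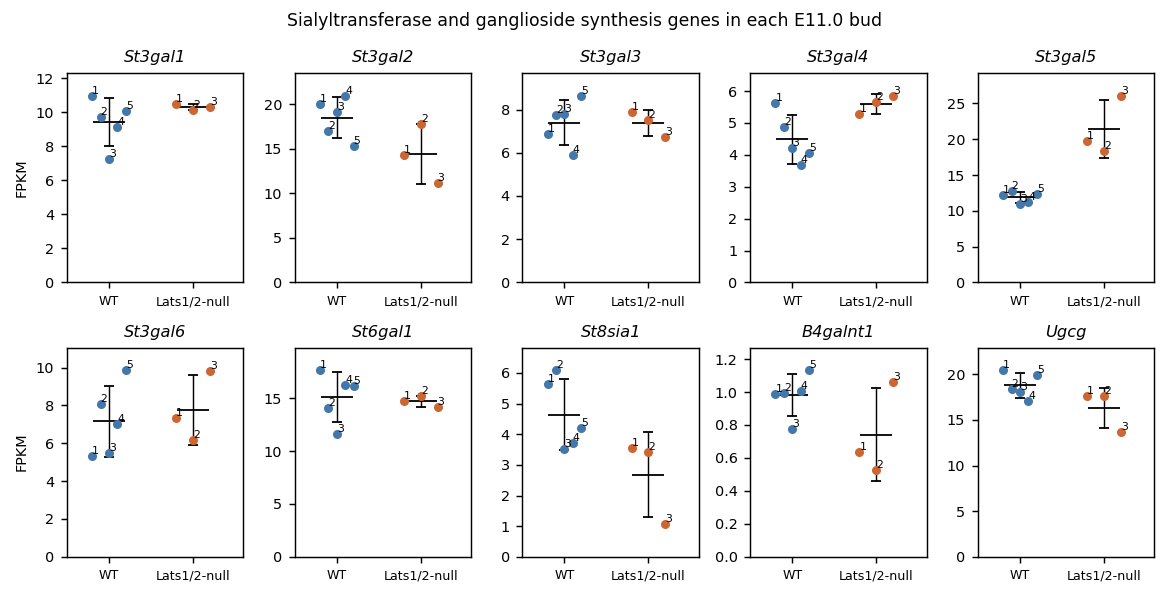
FPKM of each of the 10 genes (vertical axis, from 0) in the 5 WT and 3 Lats1/2-null buds, with the replicate number beside each point, the mean as a horizontal line and the SD as a bar. St3gal5 is the only gene whose 3 Lats1/2-null buds all lie above the 5 WT buds, and Lats1/2-null replicate 3 is lowest for St8sia1, St3gal2 and Ugcg.

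At the top of the pathway, Ugcg, the glucosylceramide synthase that starts nearly all glycosphingolipids, lies at chr4:59189550-59222833 of GRCm38 on the plus strand. Ugcg was 20.48, 18.45, 18.02, 17.04 and 19.91 FPKM in WT replicates 1 to 5, and 17.6, 17.6 and 13.7 FPKM in Lats1/2-null replicates 1 to 3. Replicates 1 and 2 of the Lats1/2-null group fell inside the WT range and replicate 3 below it. The means were 18.8 ± 1.40 and 16.3 ± 2.24 FPKM (SD, n = 5 and n = 3), a log2 difference of -0.20 ± 0.10 (SE) that became -0.09 without Lats1/2-null replicate 3.

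The next step is made by the lactosylceramide synthases B4galt5 and B4galt6, named here for their place in the pathway after their values were seen. B4galt5 was 15.7 ± 1.37 FPKM in WT and 14.1 ± 2.84 FPKM in Lats1/2-null buds (SD, n = 5 and n = 3). B4galt6 was 10.6 ± 0.620 FPKM in WT and 12.8 ± 2.67 FPKM in Lats1/2-null buds. Neither passed the adjusted threshold (adjusted p = 0.697 and 0.510, limma with Benjamini-Hochberg adjustment), and the groups overlapped for both.

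St3gal5, the GM3 synthase, lies at chr6:72097608-72154570 on the plus strand, and its exons cover 2618 bases in the annotation. St3gal5 was 12.16, 12.84, 10.96, 11.27 and 12.32 FPKM in WT replicates 1 to 5. The Lats1/2-null replicates 1 to 3 had 19.7, 18.4 and 26.1 FPKM. Every Lats1/2-null bud was above every WT bud, and replicate 3 was highest. The means were 11.9 ± 0.775 FPKM (SD, n = 5) and 21.4 ± 4.10 FPKM (SD, n = 3), a ratio of 1.80, or 1.602 without Lats1/2-null replicate 3. The log2 difference was 0.78 ± 0.11 (SE) and lay between 0.64 and 0.88 with any 1 bud left out.

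Of the markers given above, 11 of 12 epithelial, 8 of 8 tested liver and 9 of 9 tested red blood cell markers were, like St3gal5, higher on average in Lats1/2-null buds. So were 7 of 10 nerve, 5 of 8 tested leukocyte and 2 of 12 mesenchyme markers. Replicate 3 had the highest sum of the epithelial, liver and nerve markers among all buds, as it had the highest St3gal5. Of the sums, the epithelial one alone had no overlap between genotypes. As mean log2(FPKM + 1), the mesenchyme markers had none either. As a percentage of the summed FPKM of the 12 epithelial markers in the same bud, St3gal5 lay between 4.09% and 4.65% in WT (4.29 ± 0.227%, SD, n = 5) and was 3.597%, 3.881% and 2.274% in Lats1/2-null buds. On that scale every Lats1/2-null bud was below every WT bud. The marker sum itself went from a mean of 279 FPKM in WT to 724 FPKM in Lats1/2-null buds. A gene that rose less than this sum falls on that scale, so the ratio gives no level per epithelial cell. The sum includes Sox9, which the authors list among known TEAD targets. Ugcg on the same scale was 5.93% to 7.65% in WT and 3.21%, 3.71% and 1.20% in Lats1/2-null buds, also without overlap. These ratios were chosen after the values had been seen.

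The 3 genes whose deviation from the WT mean over the 8 libraries was most like that of St3gal5 were Epha1, an ephrin receptor, Cdc42ep1, an effector of the small GTPase CDC42, and Tnfrsf21, a death-domain receptor. Their mean absolute differences from St3gal5 were 0.0596, 0.0853 and 0.0872 on the log2(FPKM + 1) scale, against a median of 0.389 for the 13776 other genes. Epha1 lay between 1.118 and 1.574 FPKM in WT and was 2.40, 2.62 and 3.59 FPKM in Lats1/2-null buds. At such levels the added 1 FPKM understates the change, and likeness with a smaller added value was not tested. Cdc42ep1 lay between 15.6 and 19.5 FPKM in WT and was 27.4, 23.7 and 39.2 FPKM in Lats1/2-null buds. Tnfrsf21 lay between 5.94 and 7.31 FPKM in WT and was 12.3, 9.34 and 17.2 FPKM in Lats1/2-null buds. All 3 shared the high value of replicate 3. This likeness, like the small distances, follows from choosing the genes by their closeness to St3gal5 over these same libraries.

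The enzymes that use GM3 were lower on average in Lats1/2-null buds, with overlapping groups. St8sia1, the GD3 synthase, lies at chr6:142814231-142964452 on the minus strand. St8sia1 was 5.63, 6.10, 3.52, 3.73 and 4.22 FPKM in WT replicates 1 to 5, and 3.55, 3.41 and 1.08 FPKM in Lats1/2-null replicates 1 to 3. Lats1/2-null replicates 1 and 2 lay near the lowest WT buds and replicate 3 far below them. The means were 4.64 ± 1.16 and 2.68 ± 1.39 FPKM (SD, n = 5 and n = 3), a log2 difference of -0.68 ± 0.28 (SE). Without Lats1/2-null replicate 3 it was -0.31, and the ratio of means went from 0.578 to 0.751. Of the markers, 10 of 12 mesenchyme and 10 of 10 endothelial markers were also lower on average, and both sums were lowest in replicate 3. As a percentage of the summed mesenchyme markers of the same bud, St8sia1 was 0.305% to 0.603% in WT. In Lats1/2-null buds it was 0.389%, 0.329% and 0.127%, so that only replicate 3 left the WT range. The mesenchyme scale was chosen after the values had been seen, and expression of St8sia1 in mesenchyme was not tested.

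B4galnt1, the GM2 and GD2 synthase, lies at chr10:127165156-127172340 on the plus strand and overlaps Slc26a10 on the opposite strand. The library kit keeps strand and the reads were aligned with a strand setting, while the options of the FPKM step are not given in the sources used here. B4galnt1 was 0.988, 0.997, 0.778, 1.00 and 1.13 FPKM in WT replicates 1 to 5, and 0.638, 0.525 and 1.06 FPKM in Lats1/2-null replicates 1 to 3. Here replicate 3 lay inside the WT range while replicates 1 and 2 lay below it. The log2 difference was -0.19 ± 0.15 (SE), or -0.32 without Lats1/2-null replicate 3. At levels near the added 1 FPKM the pseudocount matters, and with 0.1 FPKM in its place the difference was -0.40.

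St3gal2, which caps O-linked chains and the outer galactose of complex gangliosides, lies at chr8:110919865-110972497 on the plus strand. St3gal2 was 20.0, 16.9, 19.1, 20.9 and 15.3 FPKM in WT replicates 1 to 5, and 14.3, 17.8 and 11.1 FPKM in Lats1/2-null replicates 1 to 3. Replicate 2 lay inside the WT range and the other two Lats1/2-null buds below it. The means were 18.5 ± 2.29 and 14.4 ± 3.36 FPKM (SD, n = 5 and n = 3), a log2 difference of -0.35 ± 0.15 (SE) that became -0.19 without Lats1/2-null replicate 3. St3gal2 as a percentage of the summed mesenchyme markers was 1.26% to 1.97% in WT and 1.56%, 1.71% and 1.30% in Lats1/2-null buds. On that scale all 3 lay inside the WT range. The scale was chosen after the values had been seen, and expression of St3gal2 in mesenchyme was not tested.

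St3gal1, the other enzyme of O-linked cores, lies at chr15:67102875-67176882 on the minus strand. St3gal1 was 10.98, 9.737, 7.232, 9.165 and 10.06 FPKM in WT replicates 1 to 5, and 10.5, 10.2 and 10.3 FPKM in Lats1/2-null replicates 1 to 3. The Lats1/2-null buds lay inside the WT range and close to each other. The log2 difference was 0.13 ± 0.12 (SE).

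St3gal3, St3gal4 and St3gal6 cap the N-acetyllactosamine ends of glycans, which include precursors of the selectin ligand sialyl Lewis x. St3gal4 (chr9:35046579-35175987, minus strand) was 5.63, 4.89, 4.20, 3.68 and 4.07 FPKM in WT replicates 1 to 5 and 5.27, 5.66 and 5.86 FPKM in Lats1/2-null replicates 1 to 3. Lats1/2-null replicates 2 and 3 were above all WT buds, and replicate 1 was below WT replicate 1. The log2 difference was 0.27 ± 0.13 (SE), and because its locus in the files overlaps Dcps on the same strand, its values are uncertain. St3gal3 (chr4:117932153-118134946, minus strand) had almost equal means of 7.39 ± 1.04 and 7.37 ± 0.603 FPKM (SD, n = 5 and n = 3), and its 3 Lats1/2-null buds, at 7.89, 7.51 and 6.71 FPKM, lay inside the WT range of 5.89 to 8.64 FPKM. St3gal6 (chr16:58470541-58523312, minus strand) ranged from 5.35 to 9.87 FPKM in WT and was 7.35, 6.15 and 9.79 FPKM in Lats1/2-null buds, again inside the WT range. Its log2 difference of 0.11 ± 0.20 (SE) turned to -0.05 without Lats1/2-null replicate 3.

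St6gal1, which places sialic acid at another position of the terminal galactose of N-glycans and makes the ligand of CD22, lies at chr16:23224740-23360350 on the plus strand. St6gal1 was 17.7, 14.1, 11.6, 16.3 and 16.1 FPKM in WT replicates 1 to 5, and 14.8, 15.2 and 14.1 FPKM in Lats1/2-null replicates 1 to 3. The Lats1/2-null buds lay inside the WT range, and the log2 difference of -0.03 ± 0.12 (SE) ran from -0.12 to 0.03 as single buds were left out.

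**Figure D2:**
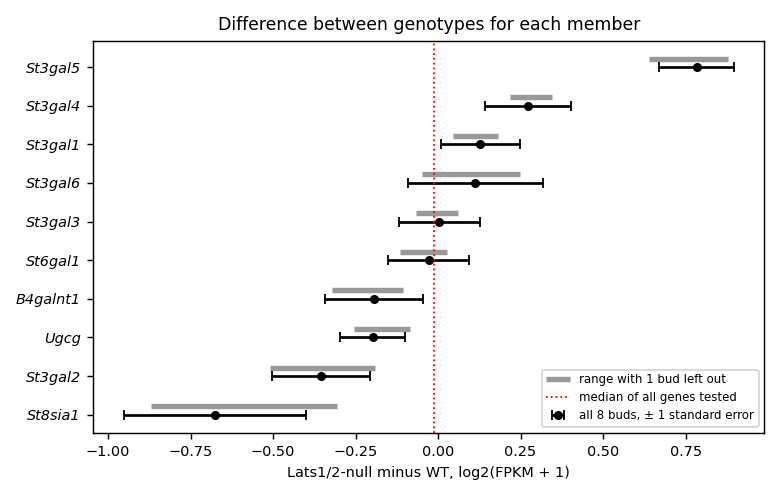
Difference between genotypes for each of the 10 genes, Lats1/2-null minus WT on the log2(FPKM + 1) scale (horizontal axis), as points with 1 SE, with the range over fits that leave out 1 bud as grey bars and the median of all genes tested as a dotted line. St3gal5 lies at 0.78 and St8sia1 at -0.68, and the grey bars of St3gal6, St3gal3 and St6gal1 include 0.

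Across the 10 genes, 5 were higher and 5 lower on average in Lats1/2-null buds, with a median log2 difference of -0.01, as over all 13777 genes tested (-0.01). None of the 10 passed an adjusted p of 0.05 (limma with Benjamini-Hochberg adjustment), which 2 genes, or 0.0145% of those tested, passed. At an unadjusted p under 0.05 there were 3 of the 10, St3gal5, St8sia1 and St3gal2, where 11.3% of all genes tested lay, and without Lats1/2-null replicate 3 there was 1 of the 10, against 5.89% of all genes tested. The groups did not overlap for 1 of the 10, St3gal5, against 7.51% of all genes tested. Without Lats1/2-null replicate 3 this held for 2 of the 10, St3gal5 and B4galnt1, against 10.2% of all genes. Since the genes were chosen with these differences in view, the counts and the p-values behind them are no test of these genes. They describe the genes and support nothing further. Lats1/2-null replicate 3 was the bud of its group farthest from the WT mean in 8 of the 10 genes, against 52.5% of all genes tested.

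The sum of the 6 ST3Gal genes shows the place of St3gal5 within the family. The sum lay between 54.7 and 61.0 FPKM in WT (58.8 ± 2.57, SD, n = 5) and was 65.0, 65.7 and 69.9 FPKM in Lats1/2-null buds. Without St3gal5 the sum was 43.8 to 48.9 FPKM in WT and 45.2, 47.3 and 43.8 FPKM in Lats1/2-null buds. The other ST3Gal genes together thus stayed within or at the edge of the WT range. St3gal5 made up 19.4% to 21.3% of the sum in WT (20.2 ± 0.701%, SD, n = 5) and 30.4%, 28.0% and 37.4% in Lats1/2-null buds (31.9 ± 4.85%, SD, n = 3). The share of St3gal2 was 25.4% to 36.1% in WT and 21.9%, 27.1% and 15.9% in Lats1/2-null buds. St3gal2 was thus above St3gal5 in every WT bud and below it in every Lats1/2-null bud.

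**Figure D3:**
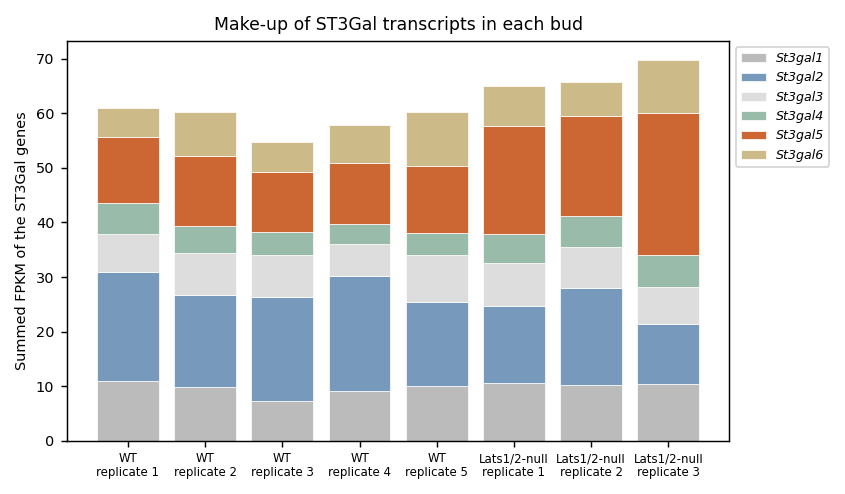
Summed FPKM of the 6 ST3Gal genes (vertical axis, from 0) in each of the 5 WT and 3 Lats1/2-null buds, as stacked bars with 1 colour per gene. The St3gal5 segment is 10.96 to 12.84 FPKM in WT bars and 18.4 to 26.1 FPKM in Lats1/2-null bars, while the other segments together are 43.8 to 48.9 and 43.8 to 47.3 FPKM.

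Ratios within a bud do not depend on the scaling of libraries. St3gal5 over Ugcg, the enzyme upstream of it, was 0.594 to 0.696 in WT and 1.122, 1.047 and 1.902 in Lats1/2-null buds. St3gal5 over St8sia1, the enzyme that uses its product, was 2.11 to 3.11 in WT and 5.56, 5.39 and 24.1 in Lats1/2-null buds. Neither ratio overlapped between genotypes, and replicate 3 was highest in both. These ratios were formed with the values of their genes known and carry no test.

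**Figure D4:**
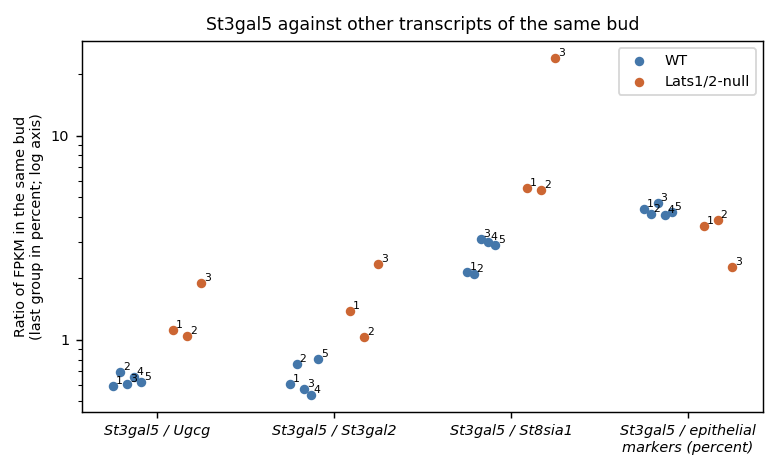
Ratio of St3gal5 to Ugcg, to St3gal2, to St8sia1 and to the summed epithelial markers (the last in percent) in each bud, on a log axis, with the replicate number beside each point. The Lats1/2-null buds lie above the WT buds in the 3 ratios to members and below them in the ratio to epithelial markers.

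Sialic acid and glycosphingolipid metabolism outside the 10 genes was covered by 65 genes, listed in 5 groups by role. Of these, 55 passed the minimum mean, and 25 were higher and 30 lower on average in Lats1/2-null buds. No gene passed the adjusted threshold (limma), 8 of the 55, or 14.5%, had an unadjusted p under 0.05 (11.3% of all genes tested), and 3 of the 55, or 5.45%, did not overlap between genotypes (7.51% of all genes tested). Without Lats1/2-null replicate 3, 3 of the 55 had an unadjusted p under 0.05, against 5.89% of all genes tested. The median log2 difference was -0.02, against -0.01 over all genes. For the counts by group below, the share of all genes tested at that p is the same 11.3%, and each group is small. The other 10 listed genes, among them Cmah, Neu2 and Neu4, were under 0.5 FPKM, and Neu4 was listed at 0 in all 8 libraries.

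Among the other sialyltransferases, 3 of 9 tested were higher and 6 lower on average, and 1 had an unadjusted p under 0.05. St6galnac2, which adds sialic acid to the inner N-acetylgalactosamine of O-linked chains, was 1.64 to 2.28 FPKM in WT and 3.72, 2.62 and 3.33 FPKM in Lats1/2-null buds. All 3 lay above the WT buds, with a log2 difference of 0.46 ± 0.14 (SE; adjusted p = 0.287, limma). St6galnac6, named after its values were seen because its groups did not overlap, was 3.73 to 3.93 FPKM in Lats1/2-null against 4.01 to 4.86 FPKM in WT. Its log2 difference was small, at -0.15 ± 0.10 (SE; adjusted p = 0.631, limma). St6galnac3 was 7.02 ± 1.68 FPKM in WT and 5.03 ± 1.02 FPKM in Lats1/2-null buds (SD, n = 5 and n = 3). St6gal2, the relative of St6gal1, was low in both, at 1.20 ± 0.447 and 0.665 ± 0.182 FPKM.

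Among 8 genes of sialic acid synthesis and transport, 4 were higher and 4 lower on average, and 2 had an unadjusted p under 0.05. Casd1, which O-acetylates sialic acid, was 24.6 ± 1.92 FPKM in WT and 18.9 ± 3.32 FPKM in Lats1/2-null buds (log2 difference -0.37 ± 0.11, SE; adjusted p = 0.292, limma), and without Lats1/2-null replicate 3 the log2 difference was -0.23. Npl, the lyase that breaks down free sialic acid, was 2.17 ± 0.430 and 3.19 ± 0.587 FPKM (log2 difference 0.40 ± 0.15; adjusted p = 0.377, limma). Slc35a1, the Golgi carrier of CMP-sialic acid on which all sialyltransferases depend, was 19.5 ± 1.19 FPKM in WT and 16.4 ± 3.58 FPKM in Lats1/2-null buds (log2 difference -0.26 ± 0.13, or -0.10 without Lats1/2-null replicate 3). The groups of all 3 overlapped.

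In the group of sialidases and lysosomal breakdown, which also holds non-lysosomal enzymes, 8 of 13 tested genes were higher and 5 lower on average. None had an unadjusted p under 0.05, nor an adjusted p under it (limma). The 3 with the smallest p were Hexa, a subunit of the hexosaminidase that degrades GM2, at 17.1 ± 2.68 and 14.4 ± 0.645 FPKM, Psap, the saposin precursor, at 55.8 ± 2.57 and 61.0 ± 5.54 FPKM, and the non-lysosomal glucosylceramidase Gba2, at 8.69 ± 1.05 and 9.86 ± 0.427 FPKM in WT and Lats1/2-null buds (SD, n = 5 and n = 3). The Gba2 locus overlaps Tln1 and Msmp on the same strand, so its values are uncertain, and the Hexa locus overlaps Tmem202 on the opposite strand. Without Lats1/2-null replicate 3 the log2 difference of Psap went from 0.12 to 0.07.

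Among galactosyltransferases and enzymes of other glycosphingolipid branches, 6 of 11 were higher and 5 lower on average, and the 3 with an unadjusted p under 0.05 were all higher. These 3 were low genes, each with a mean under 2 FPKM over the 8 libraries. Ugt8a, which makes galactosylceramide from ceramide and so competes with Ugcg for it, was 0.641 to 1.08 FPKM in WT and 2.75, 1.43 and 5.09 FPKM in Lats1/2-null buds. All 3 lay above the WT buds, and the ratio of means was 3.66, or 2.48 without replicate 3 (log2 difference 1.06 ± 0.26, SE; adjusted p = 0.207, limma). Gal3st1, which sulfates galactosylceramide to sulfatide, was 0.838 ± 0.492 FPKM in WT and 2.04 ± 1.25 FPKM in Lats1/2-null buds (log2 difference 0.69 ± 0.29; adjusted p = 0.425, limma), and without Lats1/2-null replicate 3, at 3.44 FPKM the highest bud, the log2 difference was 0.38. B3galt4, which adds the outer galactose of GM1, was 0.983 ± 0.517 and 1.92 ± 0.210 FPKM (log2 difference 0.59 ± 0.21; adjusted p = 0.339, limma). The groups of the latter pair overlapped.

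Among 14 genes of ceramide synthesis and glucosylceramide transport, 4 were higher and 10 lower on average, and the 2 with an unadjusted p under 0.05 were lower. Degs2, a dihydroceramide hydroxylase and desaturase, was 13.0 ± 1.499 FPKM in WT and 10.7 ± 0.628 FPKM in Lats1/2-null buds (log2 difference -0.25 ± 0.10, SE; adjusted p = 0.400, limma). The Degs2 locus in the files overlaps Eml1 and Evl on the opposite strand. Cers1 was 0.870 ± 0.722 and 0.0154 ± 0.0266 FPKM, and because it shares its locus with Gdf1 on the same strand, its values are uncertain. Sptlc2, a subunit of the serine palmitoyltransferase that starts ceramide synthesis, was 14.1 ± 0.836 and 15.5 ± 1.07 FPKM.

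**Figure D5:**
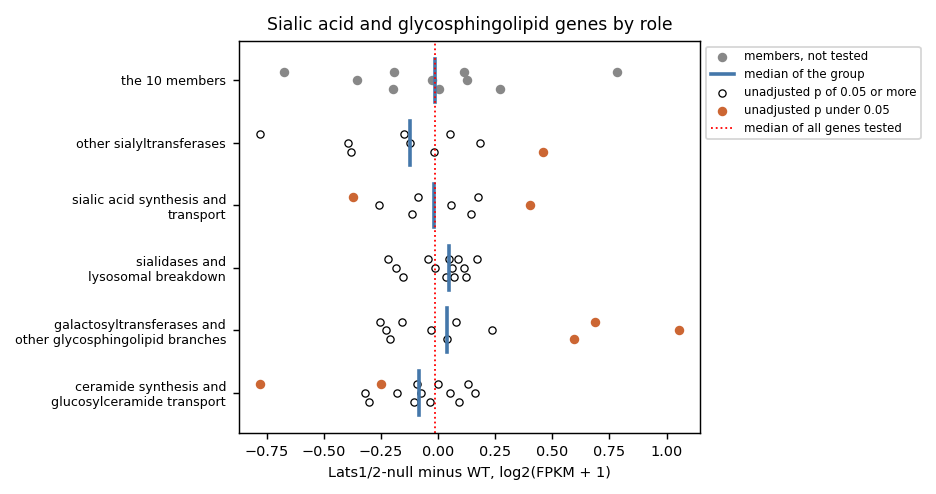
Difference between genotypes, Lats1/2-null minus WT on the log2(FPKM + 1) scale (horizontal axis), of the 10 genes and of the 55 tested genes of the 5 groups by role, with group medians as blue lines and the median of all genes tested as a dotted line. Filled orange points have an unadjusted p under 0.05 (8 of the 55 outside the members), and group medians lie between -0.12 and 0.05.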

How the data were processed

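Libraries were made from total RNA of single E11.0 buds after ribosomal depletion with a kit that keeps strand. Per the labels and methods, reads were trimmed with cutadapt 1.12 and aligned to mm10 (GRCm38) with TopHat2 2.1.0, and the authors deposited FPKM per gene, computed with version 2.2.1 of the Cufflinks tools (Cuffdiff in the labels). The methods state quantile normalization, but the deposited columns differ in distribution (upper quartiles of genes above 0 ran from 19.8 to 21.5 FPKM). Values were used as deposited, since FPKM are not counts and no count model applies. Groups and replicate numbers came from the labels, which do not say whether buds shared a litter.

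The 13777 genes averaging 0.5 FPKM or more were fitted together with limma 3.58.1 (R 4.3.3), using log2(FPKM + 1) and its trend option, at a Benjamini-Hochberg threshold of 0.05. Single genes outside the 10 were also tested by exact two-sided permutation of the mean difference over all 56 assignments. The fit was tested on simulated data. The members and the lists were chosen with earlier results of these data known, and the motifs and the ratios within a bud after the values had been seen. Genes named are the 10, Lats1 and Lats2, the 3 genes with the smallest p in each group by role, and the 3 most like St3gal5, with exceptions stated beside them. Alternatives were a pseudocount of 0.1, a minimum of 2 FPKM, no minimum, quantile normalization, median-ratio scaling, array weights, no trend, a block for the replicate number, and leaving out single buds.

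Locus starts in the table count from 0 and are given from 1. Of 23138 genes matched by symbol, 99.5% lie on the same chromosome in the RefSeq annotation of GRCm38.p6, from which promoter windows came. Plots were made in Python 3.11.15 with matplotlib 3.10.9.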

Additional observations from a re-analysis of the deposited data

Results flagged for a closer look

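In 27 genes examined for a WT bud far from the other four, 2 were found, where chance gives about 1 in 20. St6galnac3 was 4.12 FPKM in WT replicate 4, while the other WT buds lay between 7.15 and 8.23 FPKM. The gap to the nearest bud was 0.738 of the WT range, above the 95% limit of 0.710 in Dixon's test for 5 values. Lats2 was 11.6 FPKM in WT replicate 5, while the other WT buds lay between 13.96 and 14.67 FPKM, a gap of 0.765 of the range. Groups of 3 buds were not examined in this way.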

How the results depend on the processing

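Of 506 values of 32 results recomputed under 16 alternatives, 489 were counted as unchanged. For counts of genes this meant an equal count. For medians and the differences of the 10 genes it meant a move smaller than the spread between replicates. Differences of the other named genes had to keep their direction and their side of the threshold. The number of genes past the adjusted threshold was 2, and became 18 with a pseudocount of 0.1, 174 with array weights, 1 without the mean-variance trend and 1 with the replicate block. It ran from 0 to 19 with 1 bud left out, being 0 without any of WT replicates 1, 2, 3 and 5, and 19 without Lats1/2-null replicate 3. None of the 10 genes passed in the fit reported, and 1, St3gal5, passed with a pseudocount of 0.1 and with array weights. Since the 10 were chosen with this contrast in view, its passing is no test of St3gal5. Among the other pathway genes 0 passed, except for 1, Ugt8a, with array weights (log2 difference 0.98). The log2 difference of B4galnt1 was -0.40 with a pseudocount of 0.1. The cause of these changes was not tested. Same-numbered buds of unlike genotype did not deviate together (correlations of 0.0855, -0.0969 and 0.0685 over genes), so the numbers were not read as pairs. With a minimum of 2 FPKM, B4galnt1, Ugt8a, B3galt4, Gal3st1, St6gal2 and Cers1 were not tested. Read depth per gene is unknown, which limits low genes such as B4galnt1 most.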
